A study of Homo sapiens with 3 samples.

Results

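The regions described here are the 984 single vitamin D receptor (VDR) peaks listed for THP-1 cells given calcitriol but not for unstimulated cells. They were chosen by their positions in both peak lists: a peak of the calcitriol list counted if it shared 0 bp with every unstimulated peak and had no neighbour exactly 10 bp away in its own list. They make up 54.1% of the 1820 calcitriol peaks (exact 95% interval 51.7 to 56.4%) and stand among 2989 peaks in both lists. Of the 1820 calcitriol peaks, 1103 (60.6%) shared nothing with the unstimulated list, and 119 of these were set aside because they belong to strings of adjacent peaks. Absence from the unstimulated list is therefore the selection itself, not a result.

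THP-1 is an established human monocytic leukaemia cell line. Cells were kept overnight in phenol red-free medium with charcoal-stripped serum, which is low in steroid hormones, and were then either left without ligand or given 10 nM calcitriol (1α,25(OH)2D3) for 40 min. VDR-bound chromatin was recovered with an anti-VDR antibody and sequenced (ChIP-seq), with 1 library per condition. Each VDR library pooled several immunoprecipitations, so the spread between cultures cannot be estimated. The third sample, a precipitation with non-specific IgG from pooled material, was not analysed here, so no peak was checked against background. The lists give positions only, so depth and peak strength are unknown. All intervals cover counting error only, and no difference below was tested, because the conditions have no replicates and neighbouring peaks are not independent.

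VDR is the nuclear receptor for calcitriol, the hormonal form of vitamin D. It usually binds DNA together with a retinoid X receptor (RXR), most typically at pairs of hexamers in direct repeat, and part of it occupies chromatin without ligand. Ligand binding exchanges corepressors for coactivators on the receptor. Monocytes are a classical vitamin D target, in which the hormone is known for inducing antimicrobial and differentiation genes. Its sites often lie far from the start of the nearest gene.

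The calcitriol-only single peaks were of ordinary peak size. Their median width was 1379 bp (exact 95% interval 1330 to 1409 bp), with quartiles of 1070 and 1699 bp, and together they covered 1.39 Mb. The 459 single calcitriol peaks that overlapped an unstimulated peak had a median of 1650 bp (1599 to 1720 bp), and the 368 single peaks found only in unstimulated cells one of 1315 bp (1260 to 1379 bp). The calcitriol-only median was thus below that of the shared single peaks. The intervals do not overlap, but they cover counting error only, and the difference was not tested. A wide peak has more chance of touching a peak of the other list, so the rule itself bears on this difference. Peaks of 2000 bp or more made up a smaller part of the calcitriol-only single peaks: 80 (8.13%) were 2000 to 2499 bp wide and 21 (2.13%) wider, against 75 (16.3%) and 45 (9.80%) of the shared single peaks. At the other end, 186 (18.9%) were 500 to 999 bp wide, against 24 (5.23%).

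The widest calcitriol-only single peaks were scattered over the genome. The widest spanned 3380 bp at chr1:111743641-111747021, and the nearest unstimulated peak lay 860 kb away. The second, at chr1:234858101-234861341, was 3240 bp wide and 113 kb from an unstimulated peak. The third, at chr2:200319101-200322321 (3220 bp), lay much closer, 710 bp from an unstimulated peak and 680 bp from another calcitriol peak. Peaks of 2969 bp followed at chr12:45593271-45596240 and chr6:106610781-106613750, 1168 and 282 kb from the unstimulated list. In the unstimulated list, 170 rows stand at or after the first break in the position order of their chromosome. Their origin is not stated, and they are called out-of-order rows here. Without them, the first of these distances was 9080 kb and the second was unchanged. The next was 2950 bp wide, at chr18:2652741-2655691, with no unstimulated peak within 2588 kb (6480 kb without those rows) and no other calcitriol peak within 8604 kb. The remaining 4 of the 10 widest were at chr6:167410961-167413901 (2940 bp), chr1:43828201-43831131 (2930 bp), chr8:145015311-145018231 (2920 bp) and chr4:183729251-183732090 (2839 bp). Among these 10 peaks, 3 had an unstimulated peak within 50 kb and 7 had no other peak of either list that close. The narrowest, named after their values were seen, were 59 bp at chr11:497941-498000 and 100 bp at chr7:25655171-25655271, and 6 of the 984 were under 500 bp.

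On the inner side of the rule's threshold, the members closest to the unstimulated list were 50 bp from a peak of it, at chr18:74202221-74203481 and chr19:5693641-5694401. Next came chr16:1822711-1823521 and chr19:16232111-16234011, both 100 bp away, and chr3:151987701-151988961, 120 bp away. In all, 25 of the 984 (2.54%) had an unstimulated peak within 1 kb. Just outside the rule, the calcitriol peaks sharing fewest bases were pieces of strings, with 20 bp shared at chr5:179229251-179230671, 30 bp at chr2:62443741-62444671 and 40 bp at chr2:175199971-175200181 and chr5:1312061-1312941, then 60 bp at chr17:73774641-73775401. Among single calcitriol peaks the least overlap was 129 bp, at chr2:127556631-127557671. The peaks nearest to the 10 bp limit were those on chromosomes 3 and 18 named above, with a calcitriol neighbour 20 and 30 bp away.

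Calcitriol-only single peaks lay at widely varying distances from the unstimulated list. The rule left out every calcitriol peak that overlapped this list, and no reference distance was computed, so the distances are a description. The median distance to the nearest unstimulated peak was 487 kb (exact 95% interval 379 to 588 kb), with quartiles of 73.4 kb and 2.19 Mb. An unstimulated peak lay within 10 kb of 95 peaks (9.65%, interval 7.88 to 11.7%) and within 100 kb of 281 (28.6%, 25.8 to 31.5%). For 372 peaks (37.8%, 34.8 to 40.9%) none lay within 1 Mb. In the opposite direction, unstimulated-only single peaks were a median of 106 kb (77.4 to 155 kb) from the calcitriol list. Without the out-of-order rows, the calcitriol-only median was 557 kb. The 263 unstimulated-only single peaks that remained were then a median of 58.3 kb (43.4 to 85.3 kb) from the calcitriol list. Distances to the calcitriol list are measured to a list with more peaks, so the medians in the 2 directions cannot be compared directly.

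A common yardstick is the distance to sites present in both lists, which is measured to the same peaks in either direction. Calcitriol-only single peaks had a median of 986 kb to the nearest shared peak (interval 855 to 1216 kb), and unstimulated-only single peaks 411 kb (286 to 535 kb). A shared peak lay within 50 kb of 140 calcitriol-only single peaks (14.2%, 12.1 to 16.6%) and of 90 unstimulated-only single peaks (24.5%, 20.2 to 29.2%). Conversely, 487 calcitriol-only single peaks (49.5%, 46.3 to 52.7%) were over 1 Mb from any shared peak, against 121 of the 368 (32.9%, 28.1 to 37.9%). In this 1 library per condition, single peaks listed only after ligand lay farther from the common sites than single peaks listed only before it. The intervals do not overlap, but they cover counting error only, so a difference between the conditions was not tested. Of the 368 peaks found only before ligand, 105 come from out-of-order rows. For the other 263, the median distance to a shared peak was 255 kb (184 to 384 kb) and 25.9% (20.7 to 31.6%) were over 1 Mb away, so the gap was larger without those rows.

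**Figure D1:**
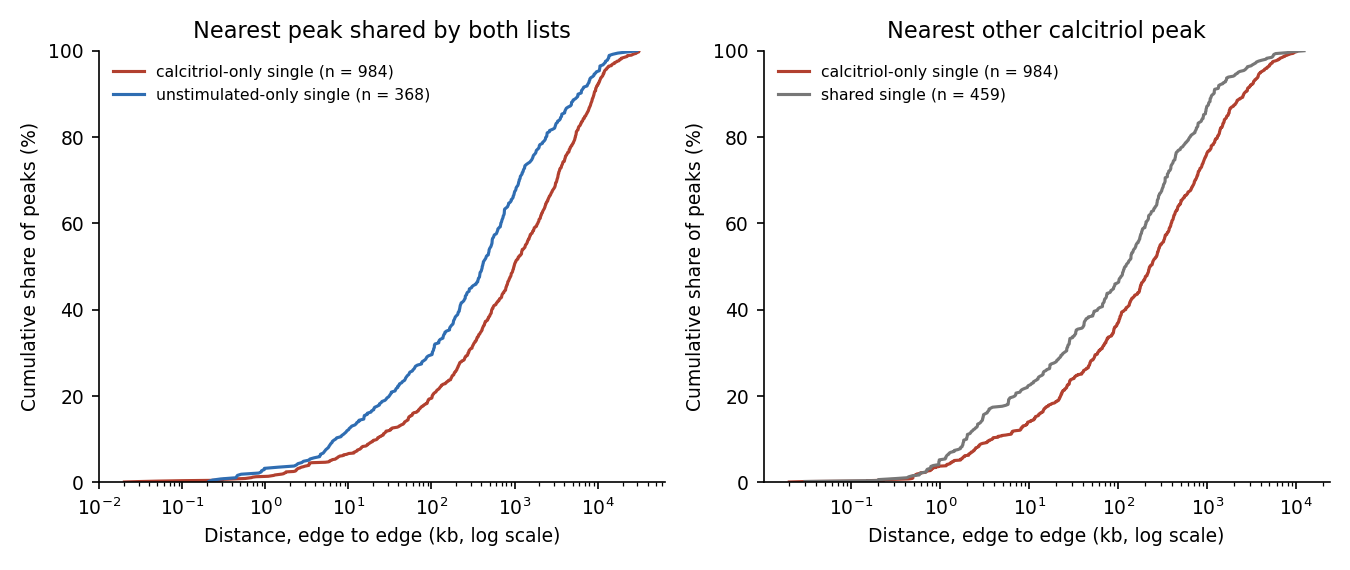
Cumulative share of peaks (%) against distance in kb on a log scale, measured edge to edge; left, distance to the nearest peak shared by both lists for 984 calcitriol-only and 368 unstimulated-only single peaks; right, distance to the nearest other calcitriol peak for the calcitriol-only and 459 shared single peaks. In both panels the calcitriol-only curve lies to the right over most of the range, with medians of 986 against 411 kb on the left and 229 against 122 kb on the right.

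Although 487 of the 984 lay over 1 Mb from any shared peak, calcitriol-only single peaks were densest close to shared peaks. Within 10 kb of a shared peak, 65 of them fell in 10.2 Mb of sequence, which is 6.35 per Mb (exact Poisson 95% interval 4.90 to 8.09). The density was 2.03 per Mb (1.60 to 2.55) at 10 to 50 kb and 1.20 per Mb (0.897 to 1.58) at 50 to 100 kb. It was 0.701 per Mb (0.604 to 0.809) at 100 to 500 kb and 0.474 per Mb (0.393 to 0.567) at 500 to 1000 kb. Beyond 1 Mb, in 2405 Mb of the genome, 487 peaks gave 0.203 per Mb (0.185 to 0.221). Density thus fell at every step away from the common sites, and the nearest zone held 31.4 times as many per Mb as the farthest. For unstimulated-only single peaks the corresponding densities ran from 4.30 per Mb (3.12 to 5.77) to 0.0503 per Mb (0.0418 to 0.0601), a ratio of 85.4. Without the out-of-order rows these were 3.91 per Mb (2.79 to 5.32) and 0.0283 per Mb (0.0220 to 0.0359), a ratio of 138. The zones take in all sequence up to the last peak of each chromosome.

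**Figure D2:**
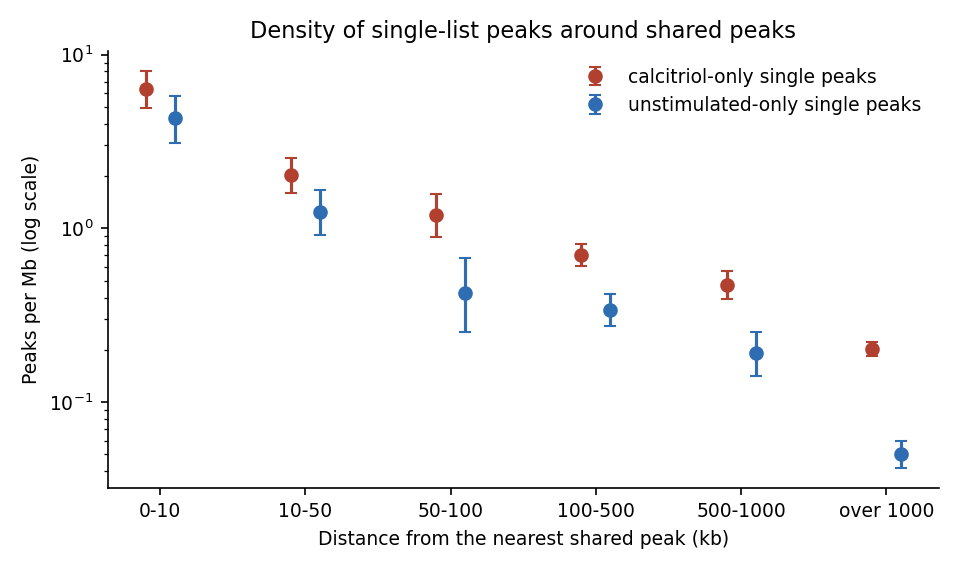
Peaks per Mb on a log scale, in 6 zones of distance (kb) from the nearest peak shared by both lists, for calcitriol-only single peaks (red) and unstimulated-only single peaks (blue); bars are exact Poisson 95% intervals. Both series fall from the nearest to the farthest zone, from 6.35 to 0.203 and from 4.30 to 0.0503 per Mb.

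Most of the calcitriol-only single peaks stood alone, but so did most shared single peaks within the calcitriol list. No other calcitriol peak lay within 50 kb of 706 of the 984 (71.7%, 68.8 to 74.5%) and of 283 of the 459 shared single peaks (61.7%, 57.0 to 66.1%). Both classes leave out peaks with a neighbour 10 bp away. Within 50 kb, 667 of the 984 (67.8%, interval 64.8 to 70.7%) had no other peak of either list. A shared peak was within that radius of 140, and 71 (7.22%) had no shared peak but an unstimulated-only peak. The other 106 (10.8%) had only further calcitriol-only peaks nearby. At 10 kb, 822 (83.5%) had no other peak, and at 100 kb 569 (57.8%) had none. At 50 kb, median widths in the 4 surroundings ran from 1364 bp (1260 to 1440 bp) near a shared peak to 1420 bp (1290 to 1510 bp) near other calcitriol-only peaks, with overlapping intervals. At 10 kb they ran from 1290 bp (1040 to 1520 bp) for the 65 near a shared peak to 1674 bp (1210 to 1740 bp) for the 30 near an unstimulated-only peak, again with overlapping intervals. The nearest peak of either list was another calcitriol-only single peak in 526 cases (53.5%), a shared peak in 251 (25.5%), an unstimulated-only peak in 181 (18.4%) and a calcitriol-only string in 26 (2.64%). These shares depend on how many peaks each class has, 984, 1449, 437 and 119 respectively, with shared peaks counted in both lists.

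Spacing within the calcitriol list showed the same scatter. The nearest other calcitriol peak was a median of 229 kb away (interval 195 to 275 kb), against 122 kb (90.7 to 157 kb) for shared single peaks. Another calcitriol peak lay within 10 kb of 138 calcitriol-only single peaks (14.0%, 11.9 to 16.4%) and of 103 shared single peaks (22.4%, 18.7 to 26.5%). Counting only each other, calcitriol-only single peaks were a median of 433 kb apart from their nearest fellow (389 to 505 kb), and 82 (8.33%) had one within 10 kb. The most isolated was at chr6:15595301-15596391, with no other peak of either list within 10.4 Mb. Next were chrX:57941881-57942650 and chrX:68084911-68086400, which are each other's nearest neighbours at 10.1 Mb. Peaks at chr9:16289181-16290900 and chr18:33708591-33710800 followed, alone within 9.70 and 9.56 Mb.

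A minority formed groups. Chained at distances of 50 kb or less, 187 of the 984 (19.0%, interval 16.6 to 21.6%) fell into 86 groups of 2 or more, of which 74 were pairs, 10 held 3 peaks, 1 held 4 and 1 held 5. In 48 of these groups, with 98 of the 187 peaks, no unstimulated peak lay within 50 kb of the group. Of all 984, counted peak by peak, 774 (78.7%, 76.0 to 81.2%) had no unstimulated peak within 50 kb. The first count is stricter, because it is taken from the whole group. The closest pair was at chr19:4561861-4563080 and chr19:4563231-4564141, separated by 151 bp. The next closest were 230 bp apart on chromosome 8 (141553671 to 141554551 and 141554781 to 141556061) and 490 bp apart on chromosome 19 (4060821 to 4062771 and 4063261 to 4065110). A gap of 490 bp also separated chr2:43333971-43335501 from chr2:43335991-43337021, and one of 491 bp chr5:139986181-139987570 from chr5:139988061-139989521. From the outer edge of one peak to that of the other, these 5 pairs spanned 2280 to 4289 bp.

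The largest group lay on chromosome 10, where 5 calcitriol-only single peaks spread over 36.5 kb near sites that were also listed before ligand. They were at 70820711 to 70821931 (1220 bp), 70832621 to 70833511 (890 bp), 70850441 to 70851450 (1009 bp), 70853131 to 70854651 (1520 bp) and 70855601 to 70857241 (1640 bp). Between the first and the second stood a shared peak whose width was 2369 bp before ligand and 1860 bp after it. Past the fifth came a calcitriol-only string of 2 peaks (70859791 to 70861941) and a string of 3 shared peaks reaching 70868400, where the unstimulated list had 1 peak of 1740 bp. The locus thus had 2 peaks before ligand and 11 after it, and 5 of the latter are pieces of the 2 strings.

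The group of 4 on chromosome 8 had no shared peak within 50 kb. Its peaks began at 145007531, 145013671, 145015311 and 145051181 and were 1700, 840, 2920 and 2459 bp wide. The unstimulated list had 1 peak nearby, at 145001401 to 145003371, which did not overlap any calcitriol peak. On chromosome 5, 3 peaks of 1060, 1540 and 2220 bp stood within 10.7 kb, from 139038551 to 139049261. They ended 230 bp before an unstimulated-only peak at 139049491 to 139051790. On chromosome 15, 3 peaks within 12.9 kb (89928661 to 89941591) followed an unstimulated-only peak of 510 bp at 89911871. In these 3 groups the single unstimulated peak near the group was absent from the calcitriol list, so the lists differed there in both directions. On chromosome 19, 3 peaks within 16.0 kb (4548131 to 4564141) had no unstimulated peak within 50 kb. The same held for 3 peaks of 1750, 1799 and 2020 bp on chromosome 7, from 128550761 to 128589621, whose nearest unstimulated peak was 5527480 bp or more away.

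**Figure D3:**
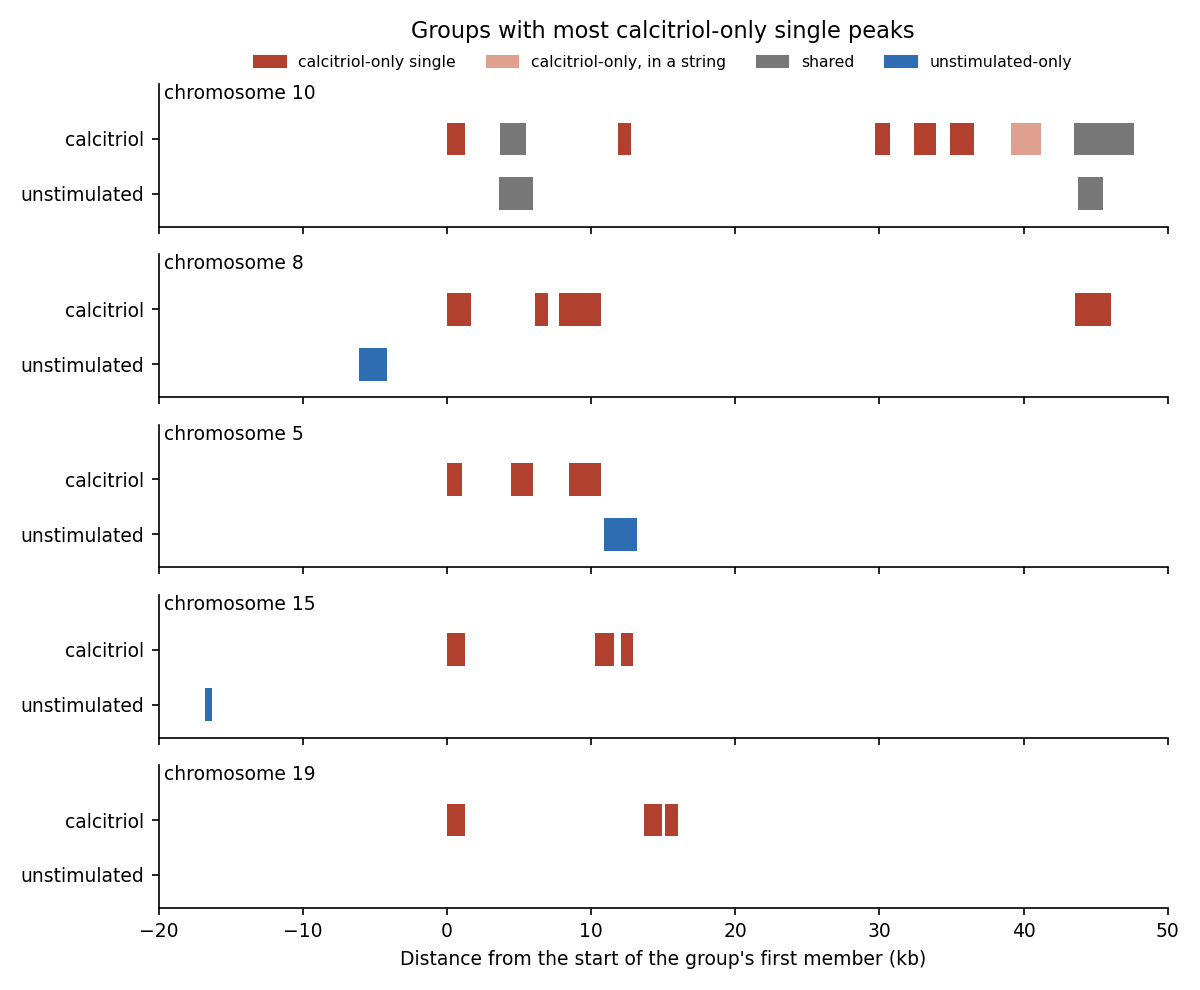
Peaks of the calcitriol and unstimulated lists in the 5 groups with most calcitriol-only single peaks, drawn to scale in kb from the start of each group's first such peak, for chromosomes 10, 8, 5, 15 and 19. Only the chromosome 10 group, with 5 of them, has shared peaks (grey) among or beside its members; the chromosome 19 group has no unstimulated peak in view.

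Long parts of the genome without an unstimulated peak contained runs of calcitriol-only single peaks. Any single calcitriol peak in such a part is calcitriol-only by the rule, so the runs describe positions and are no result about these peaks. The 984 peaks fell into 449 stretches bounded by unstimulated peaks or by the end of the list, and 135 stretches with 3 or more held 568 of them (57.7%, interval 54.6 to 60.8%). Without the out-of-order rows, 139 such stretches held 607 (61.7%, 58.6 to 64.7%). The order of the fuller stretches also changed without those rows: stretches with 9 peaks on chromosomes 12 and 2 and with 8 on chromosomes 3 and 4 then ranked among the 10 fullest. The fullest was on chromosome 1, where 13 peaks and a string of 3 further calcitriol-only peaks lay in the 10.3 Mb between unstimulated peaks ending at 27628320 and starting at 37944901. Their first was at 28211531 to 28213271 and their last at 35912661 to 35913531. The peak that bounds this stretch at 27628320 is an out-of-order row. Without such rows the stretch was 11.1 Mb long and held the same number. On chromosome 2, 11 peaks from 201982541 to 228646951 lay in 31.0 Mb, and this stretch was the same without those rows. The tightest of the fuller stretches was on chromosome 15, with 7 peaks in 1.52 Mb, or 4.62 per Mb. It included the group of 3 described above and single peaks starting at 90379511, 90601781, 90879861 and 91185241, which were 1450, 2109, 630 and 1509 bp wide.

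Chromosome X showed the longest gap. The unstimulated list had 6 peaks there and none between 38665500 and 134655591. In these 96.0 Mb, which include the centromere, the calcitriol list had 8 peaks, which count as calcitriol-only by the rule because there is no unstimulated peak to overlap. None was part of a string. They began at 39585341, 40709001, 57941881, 68084911, 102941141, 106917281, 129225181 and 134477581. A further 7 lay before the first unstimulated peak, between 7001401 and 30576360, and the last of these was 3921 bp from it. In all, chromosome X carried 21 calcitriol-only single peaks among its 25 calcitriol peaks (84.0%, interval 63.9 to 95.5%, against 54.1% of the whole list). The few unstimulated peaks there bear on this share directly. Among the other chromosomes the share ran from 32.4% (21.5 to 44.8%) on chromosome 22 to 81.8% (59.7 to 94.8%) on chromosome 21. The density on chromosome X was low, at 0.137 per Mb (0.0846 to 0.209).

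**Figure D4:**
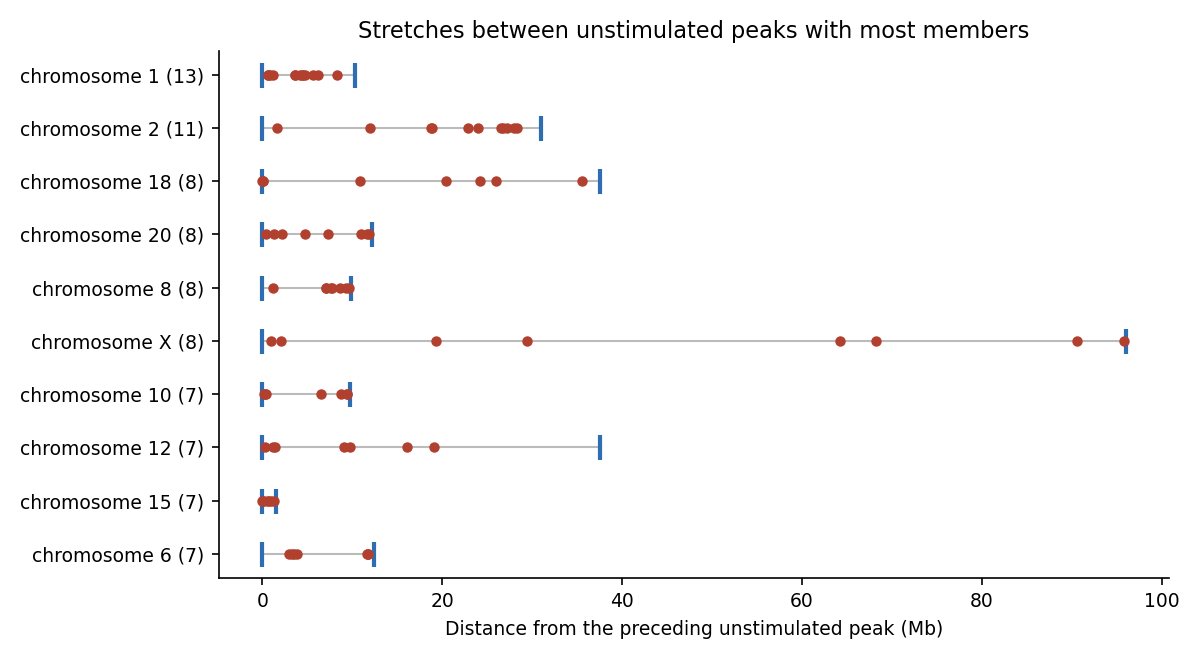
The 10 bounded stretches between neighbouring unstimulated peaks (blue ticks) that hold most calcitriol-only single peaks (red points, number in brackets), in Mb from the preceding unstimulated peak. All unstimulated rows are used, out-of-order rows included; stretches with 7 to 13 peaks range in length from 1.52 Mb on chromosome 15 to 96.0 Mb on chromosome X.

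By chromosome, calcitriol-only single peaks ranged from 12 on chromosome 13 to 106 on chromosome 1. Over the 23 chromosomes the density was 0.327 per Mb (0.306 to 0.348). Chromosome 19, which is small and rich in genes, stood apart with 75 peaks and 1.27 per Mb (0.998 to 1.59), while the next highest, chromosome 22, had 0.432 per Mb (0.270 to 0.653). The lowest were chromosomes 13, X, 18, 9, 14 and 4, from 0.108 per Mb (0.0556 to 0.188) on chromosome 13 to 0.226 per Mb (0.163 to 0.306) on chromosome 4. On chromosome 19 neighbours were also closest, with a median of 99.3 kb to the nearest other calcitriol-only single peak, against 2098 kb on chromosome 13. Chromosome 19 was not rich in these peaks alone. It held 165 of the 1820 calcitriol peaks, 149 of the 1169 unstimulated peaks and 47 of the 368 unstimulated-only single peaks. Calcitriol-only single peaks were 45.5% of its calcitriol peaks (37.7 to 53.4%), against 54.1% of the whole list. On 11 chromosomes these peaks alone outnumbered the whole unstimulated list, among them chromosome 4 with 42 against 22 and chromosome 20 with 25 against 15.

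Counted per gene, chromosome 19 no longer stood apart. With protein-coding genes per chromosome from a RefSeq table of GRCh38.p14, the genome had 4.93 calcitriol-only single peaks per 100 genes (4.62 to 5.24) and chromosome 19 had 5.17 (4.07 to 6.48). The highest ratios were 7.83 (5.92 to 10.2) on chromosome 8 and 7.53 (4.46 to 11.9) on chromosome 21. The lowest were 2.48 (1.53 to 3.79) on chromosome X, 2.74 (1.87 to 3.86) on chromosome 17 and 3.38 (2.46 to 4.54) on chromosome 11. The interval held the genome value on 18 of 23 chromosomes per gene and on 15 of 23 per Mb. The range between chromosomes was 3.16-fold per gene and 11.8-fold per Mb. These are counts by whole chromosome, and no peak was assigned to a gene here.

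**Figure D5:**
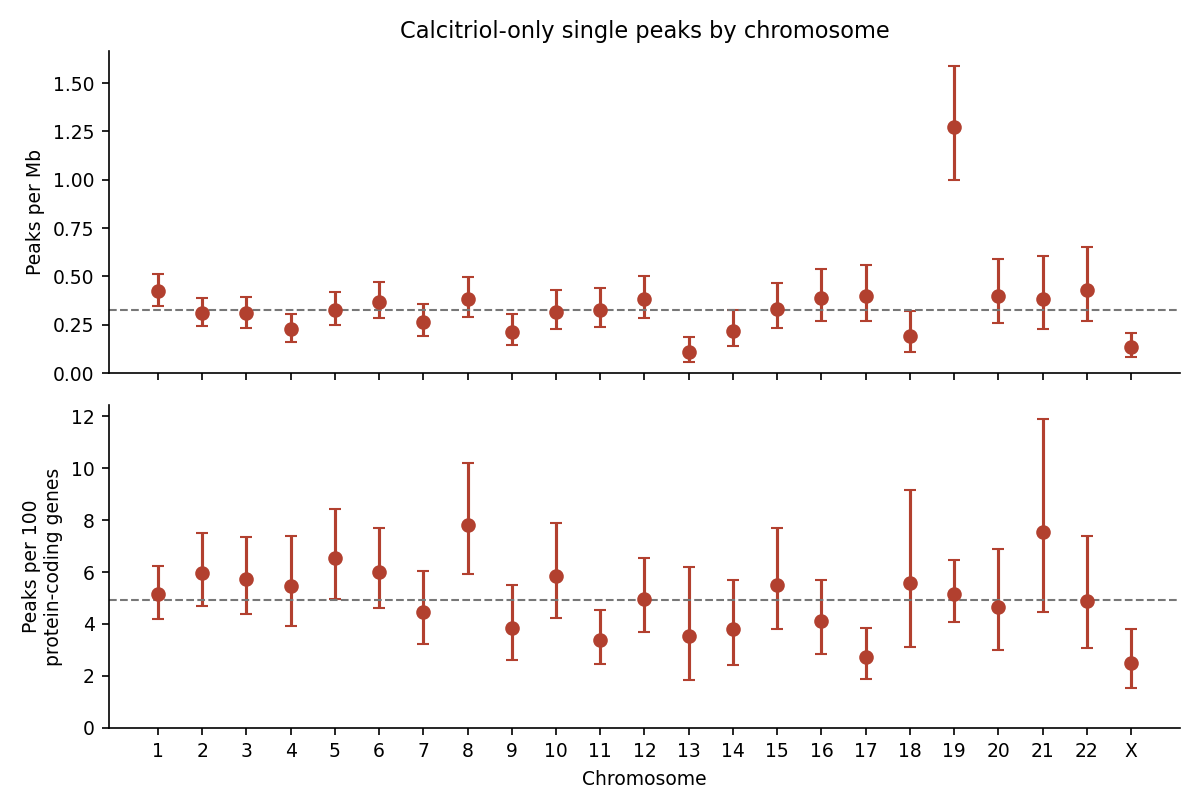
Calcitriol-only single peaks on each of 23 chromosomes, per Mb (top) and per 100 protein-coding genes (bottom), with exact Poisson 95% intervals; the dashed line is the value over all chromosomes. Chromosome 19 is highest per Mb (1.27) but near the line per gene (5.17), where chromosome 8 is highest (7.83) and chromosome X lowest (2.48).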

How the data were processed

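The submitters' processing notes name Bowtie as aligner and hg19 as genome build, without a Bowtie version. Which peak caller and threshold were used, and whether the IgG control entered, is not given in the sources used here. The authors deposited 1 list per VDR sample, with a chromosome and 2 positions for every peak and no other values. Positions are printed as deposited, and width is end minus start. Of the 1169 unstimulated rows, 170 stand at or after the first break in the position order of their chromosome ("out-of-order rows"). Their origin is not stated.

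Peaks sharing at least 1 bp were called shared, peaks 10 bp apart a string. Distances are edge to edge. Medians have exact order-statistic intervals, shares Clopper-Pearson and counts Poisson intervals, all at 95%. Chromosome length was taken as the last peak end of either list (3013 Mb in all). Peaks were named by rule: the 10 widest, the 5 most isolated, the 5 largest groups (ties by shortest span), the 5 closest pairs and the 5 on either side of the overlap limit. Stretches, chromosome extremes, the narrowest peaks and the chromosome 7 group were picked after their values were seen. The members, rules and lists were chosen with earlier results of these data known. Genes near peaks, gene lists and motifs were planned but not analysed, because the annotation used here is of another build (GRCh38.p14), of which only gene counts per chromosome (19974 in all) entered. The rule and distance functions were tested on simulated lists with known answers. Alternatives are given in the closing section. Python 3.11.15, numpy 2.4.6, pandas 2.3.3, scipy 1.17.1 and matplotlib 3.10.9 were used.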

Additional observations from a re-analysis of the deposited data

How the results depend on the processing

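Of 74 alternative values, 66 lay within the reported value's own exact 95% interval or, for counts, within 1.5 times of it. Several alternatives kept nearly the same peaks, so this tally is no measure of robustness. Leaving out the out-of-order rows changed no member, so values drawn from the calcitriol list alone could not move. The number of calcitriol-only single peaks was 959 with no unstimulated peak allowed within 1 kb, 995 when overlaps under 50% of the shorter peak did not count as sharing, and 984 without out-of-order rows. The count of 984 was unchanged because no single calcitriol peak overlapped such rows alone. Of these 170 rows, 105 were unstimulated-only single peaks. With peaks kept that have a neighbour 10 bp away, pieces of a string count as neighbours: the median distance was 170 kb to another calcitriol peak and 302 kb to another member, 132 groups formed, 17.1% lay within 50 kb of a shared peak and 60.5% had no other peak within 50 kb. Leaving out members under 1000 bp wide, which leaves fewer of them, gave 551 kb to the nearest other member and 0.982 per Mb on chromosome 19. Chaining at 10 kb gave 39 groups. The last-named width limit and the out-of-order rows were alternatives chosen after seeing the data. No paired analysis was possible because neither condition was repeated. The alternatives for gene positions, gene lists and motifs were not run. Without read counts, depth sets an unknown limit on which peaks could be found in either library.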
